A study of Mus musculus with 16 samples.

Results

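The synaptotagmins are membrane proteins of vesicles and other organelles, and 10 of their genes were followed in RNA from the cell bodies and the axons of cultured motoneurons: *Syt1*, *Syt2*, *Syt3*, *Syt4*, *Syt5*, *Syt6*, *Syt7*, *Syt9*, *Syt11* and *Syt13*. They were found by gene symbol and make up 10 of the 46320 genes in the count table. The family was chosen by the +/+ levels of *Syt2*, whose axonal against somatodendritic fold change was among the most negative of all transcripts, so +/+ values are given as a description and without a test. Lumbar spinal cords of mouse embryos (embryonic day 13) were the source of the motoneurons, which were enriched with a p75NTR antibody and grown in microfluidic chambers, where axons grow into a compartment of their own. Both compartments received CNTF, and BDNF was given to the axonal side only. The 4 groups were +/+ somatodendritic, +/+ axonal, *Hnrnpr*-/- somatodendritic and *Hnrnpr*-/- axonal, with 4 libraries each and 16 in total. *Hnrnpr*-/- mice carry a constitutive CRISPR/Cas9 deletion of the first exons of *Hnrnpr*, which encodes the RNA-binding protein hnRNP R, and were backcrossed to C57Bl/6, whereas +/+ mice have both intact alleles. Nothing in the labels says how many embryos or cultures went into a library, so the p-values measure the spread between libraries.

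A synaptotagmin has a membrane anchor followed by a pair of C2 domains, and in several members these domains bind calcium and phospholipids. *Syt1* and *Syt2* encode the fast calcium sensors of synaptic vesicle fusion, and *Syt2* is the main sensor of the mature neuromuscular junction, where motoneurons release acetylcholine. *Syt7* encodes a slower sensor of high calcium affinity, *Syt4* and *Syt11* encode proteins whose first C2 domain has lost a calcium-binding residue, and the C2 domains of *Syt13* lack calcium-binding residues. *Syt5* and *Syt9* have been exchanged between naming schemes, and the names here follow the gene table of the count file.

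Close paralogues can share reads, so the longest identical coding stretches are shown for *Syt1* with *Syt2*, whose ratio is tested, and for *Syt1* with *Syt5*, which differed in their calls. *Syt1* and *Syt2* are the most alike, with 78.9% identical residues in the proteins translated from their GENCODE transcripts. Their longest shared run has 26 bases and is printed in capitals, with the flanking coding bases in lower case, from the GRCm39 genome with GENCODE M39 transcripts. The window codes for part of the second C2 domain and spans a splice junction in both genes. It lies at chr10:108340388-108419792 on the minus strand in exons 9 and 10 of *Syt1*, and at chr1:134673528-134674495 on the plus strand in exons 8 and 9 of *Syt2*.
Syt1: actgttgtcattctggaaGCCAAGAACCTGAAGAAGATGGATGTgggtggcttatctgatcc
Syt2: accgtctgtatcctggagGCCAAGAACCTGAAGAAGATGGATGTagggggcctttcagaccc

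The second pair is *Syt1* and *Syt5*, with 58.8% identical residues, the closest member to *Syt5*. The shared run has 25 bases, again across a splice junction, at chr10:108467815-108472462 in exons 6 and 7 of *Syt1* and at chr7:4545880-4546067 in exons 3 and 4 of *Syt5*, both on the minus strand.
Syt1: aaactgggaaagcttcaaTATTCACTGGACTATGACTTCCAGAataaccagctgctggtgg
Syt5: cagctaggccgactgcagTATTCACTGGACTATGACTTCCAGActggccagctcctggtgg

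The longest run that any pair of members shared over whole transcripts was 36 bases, between *Syt2* and *Syt7*, which is below the read length of 100 bases. A full-length read of one of these transcripts therefore could not match another without mismatches. The library kit does not mark strand, so reads of a gene and of a transcript on the opposite strand cannot be told apart. In GENCODE, the exons of 7 members overlapped those of opposite-strand genes, over 19.1% of the exon bases for *Syt4*, 13.8% for *Syt6*, 12.5% for *Syt11* and less for *Syt5*, *Syt3*, *Syt7* and *Syt13*. In the annotation of the count file, only *Syt1* and *Syt3* overlapped other genes, and the largest of these, *1700008O03Rik* beside *Syt3*, had a mean of 27.3 counts per library.

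Total counts per library ranged from 22024923 to 34864151, and all 10 members passed the expression filter together with 19964 genes in total. *Hnrnpr* itself was found at 120 to 422 CPM (read counts scaled to library size) in +/+ libraries and at no more than 1.16 CPM in *Hnrnpr*-/- libraries, as their labels say. The motoneuron identity of the cultures was checked with 8 markers. *Tubb3* and *Map2*, which any neuron expresses, were abundant in somatodendritic libraries, whereas the defining transcription factor *Mnx1* had no count, which allows up to 3 counts, in any library but 1 *Hnrnpr*-/- axonal one, where it stood at 0.06 CPM. In *Hnrnpr*-/- somatodendritic libraries, *Isl2* had 0.01 ± 0.02 CPM (SD, n = 4) and *Chat*, the enzyme of acetylcholine synthesis, 1.07 ± 0.22 CPM. The transcription factor *Isl1* and the transporters *Slc18a3* and *Slc5a7* were detected there at 4.77 ± 0.60, 6.56 ± 1.98 and 4.25 ± 1.11 CPM. Axonal libraries with the replicate number 3 had the lowest summed motoneuron markers of their genotype, at 190 CPM for +/+ and 171 CPM for *Hnrnpr*-/-, and *Hnrnpr*-/- axonal replicate 4 was also low, at 272 CPM. The members' calls are therefore also given without both *Hnrnpr*-/- libraries of that number, and the paralogue ratios without the axonal one. The calls without replicate 4 are given with those of the other single libraries.

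**Figure D1:**
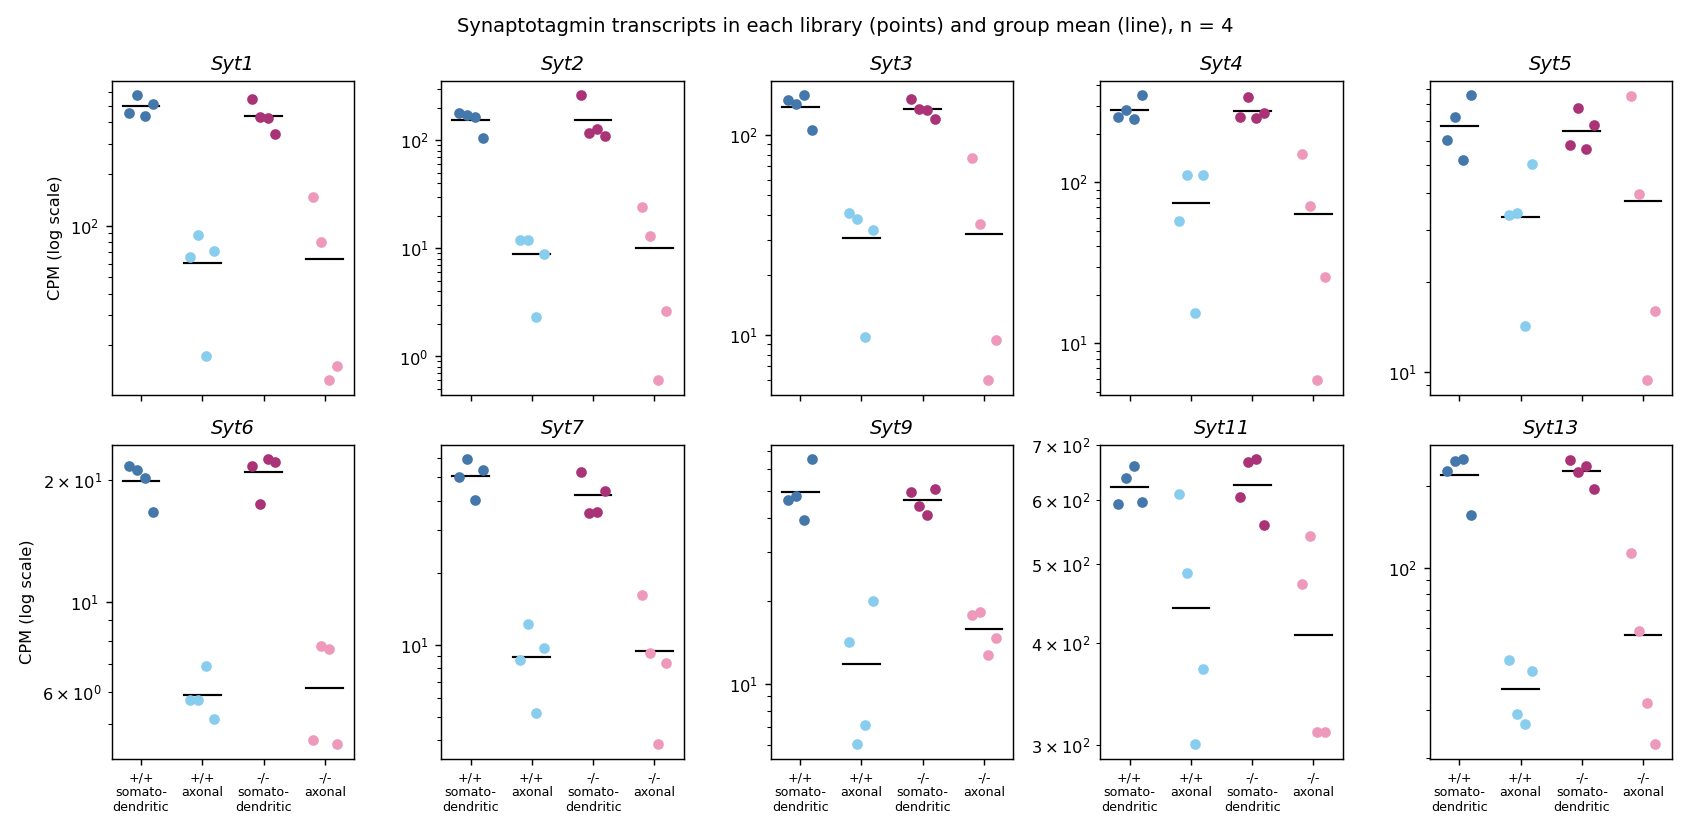
Level of each synaptotagmin transcript in CPM on a log scale, with 1 point per library and a line at the mean of the 4 libraries of each group. Axonal points lie below the somatodendritic ones for 9 members in each genotype, and Syt11 and Syt5 show the smallest distance between compartments.

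Next, the members' order within a compartment was examined on a scale that corrects for gene length, CPM per kb of exon. In somatodendritic libraries of both genotypes, the order from the highest was *Syt11*, *Syt1*, *Syt13*, *Syt4*, *Syt5*, *Syt3*, *Syt2*, *Syt9*, *Syt7* and *Syt6*. *Syt11* reached 108 ± 9.47 CPM per kb and *Syt1* 80.0 ± 15.8 in *Hnrnpr*-/- libraries, and their ranges overlapped. In these libraries the only neighbours whose ranges were apart were *Syt9*, at 10.9 ± 1.12 CPM per kb, and *Syt7*, at 3.64 ± 0.70. *Syt2* was seventh at 16.7 ± 7.79 CPM per kb, overlapping with both of its neighbours. The order depends on the exon length in the count file, which for some members differs from that of the GENCODE transcript. These lengths were 3751 and 7555 bases for *Syt13*, 4803 and 2783 for *Syt3*, and 6396 and 1856 for *Syt6*, so the order and the shares in the family hold only for the deposited lengths.

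In *Hnrnpr*-/- axonal libraries, *Syt11* stood alone at 70.8 ± 20.2 CPM per kb, and its range did not overlap with that of *Syt5*, which came next. *Syt13*, *Syt1*, *Syt4*, *Syt3* and *Syt9* followed with overlapping ranges between neighbours. Below *Syt9*, at 3.72 ± 0.61 CPM per kb, came a gap to *Syt2*, *Syt6* and *Syt7*, which had 1.11 ± 1.19, 0.95 ± 0.29 and 0.82 ± 0.44 and overlapped with each other. The same 2 gaps separated *Syt11* from the rest and *Syt9* from *Syt2* in +/+ axonal libraries.

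The make-up of the family differed between compartments. *Syt11* made up 27.5% ± 2.27 of the summed CPM per kb of the 10 members in *Hnrnpr*-/- somatodendritic libraries and 55.9% ± 15.7 in axonal libraries. For *Syt1*, these shares were 20.2% ± 2.49 and 6.57% ± 4.09, and for *Syt2* 4.17% ± 1.65 and 0.59% ± 0.46. *Syt5* had 9.29% ± 1.65 and 12.6% ± 5.58, with overlapping ranges. The sum itself was 350 to 427 CPM per kb in *Hnrnpr*-/- somatodendritic and 76.6 to 237 in axonal libraries.

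**Figure D2:**
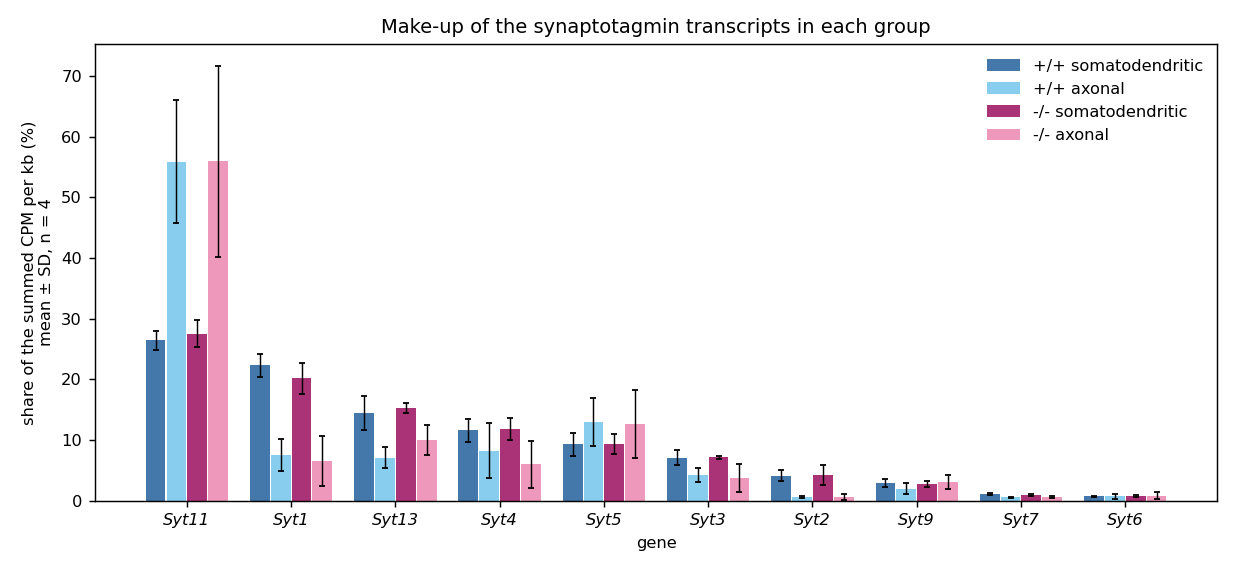
Share of each member in the summed CPM per kb of the 10 synaptotagmins, with bars for the mean of 4 libraries and whiskers for the SD. Syt11 goes from 27.5% in somatodendritic to 55.9% in axonal Hnrnpr-/- libraries, whereas Syt1 goes from 20.2% to 6.57%.

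To find out whether the axonal deficit seen in +/+ cultures was also present in libraries that had no part in the choice of the family, axonal and somatodendritic levels were compared within *Hnrnpr*-/- motoneurons. With edgeR's quasi-likelihood F-test, adjusted over all 19964 genes, 9 of 10 members were lower in axons at an adjusted p under 0.05, all but *Syt5*. Of all genes tested, 52.8% passed in either direction and 26.0% passed as lower in axons. The median log2 fold change was -2.04 over the members and -0.00 over all genes. The groups did not overlap for 9 members, again all but *Syt5*, against 27.3% of all genes.

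*Syt2*, on chromosome 1 from 134574272 to 134680887 (GRCm39), was found at 260.3, 118, 126 and 109.8 CPM in *Hnrnpr*-/- somatodendritic replicates 1 to 4. The axonal replicates 1 to 4 had 24.3, 13.1, 0.60 and 2.65 CPM. Every axonal library lay below every somatodendritic one, and axonal replicate 3 held only 20 counts. The log2 fold change was -3.92 (SE, the standard error, 0.97; adjusted p = 0.0105 from edgeR), the most negative value of the 10. *Syt1*, the other fast sensor, lies on chromosome 10 from 108333511 to 108846852 and had 550.1, 428, 422 and 342 CPM in somatodendritic and 146.8, 80.4, 12.5 and 15.2 CPM in axonal replicates. Axonal replicates 3 and 4 were the low ones, and the groups were apart. Its log2 fold change was -2.77 (SE 0.75, adjusted p = 0.0149).

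*Syt5*, on chromosome 7 from 4542764 to 4550540, has *Syt1* as its closest relative in the family and had 58.3, 78.0, 56.5 and 68.0 CPM in somatodendritic libraries and 85.2, 39.8, 9.33 and 16.01 CPM in axonal ones. Axonal replicate 1 was above all 4 somatodendritic libraries, and the other 3 were below them. The log2 fold change of -0.79 did not pass the threshold (95% interval -2.13 to 0.55, adjusted p = 0.283 from edgeR). Without that axonal library it was -1.59 with an adjusted p of 0.017.

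*Syt3* and *Syt7*, whose proteins bind calcium with high affinity, and *Syt6* and *Syt9* were each lower in axons. *Syt7*, the sensor of delayed release, ranged from 35.4 to 52.6 CPM in somatodendritic and from 3.84 to 16.1 CPM in axonal libraries, and its log2 fold change was -2.16 (SE 0.39, adjusted p = 0.00323). *Syt3* ranged from 121 to 152 and from 5.94 to 77.1 CPM, and its log2 fold change was -2.08 (SE 0.71, adjusted p = 0.036). Of these 4, *Syt6* and *Syt9*, which share 62.3% of residues, varied least among axonal libraries. *Syt6* had 17.4 to 22.5 CPM against 4.44 to 7.76, and *Syt9* 40.9 to 51.0 CPM against 12.8 to 18.2. Their log2 fold changes were -1.77 (SE 0.25) and -1.55 (SE 0.17), with adjusted p-values of 0.00149 and 0.001.

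*Syt4* and *Syt11* form a pair with 56.2% identical residues. *Syt4*, which is found on dense-core vesicles, had 256, 340, 251 and 269.9 CPM in somatodendritic replicates 1 to 4 and 150.6, 70.9, 5.88 and 26.0 CPM in the axonal ones. The groups were apart, but the axonal libraries differed widely, and the log2 fold change was -2.14 (SE 0.78, adjusted p = 0.0452). *Syt11*, on chromosome 3 from 88652006 to 88682466, had 605, 668, 673 and 559 CPM in somatodendritic replicates 1 to 4 and 473, 542, 311 and 311 CPM in the axonal ones. The 2 groups came close without overlapping, at 542 and 559 CPM. The fold change was the smallest in size, at -0.61 (SE 0.22, adjusted p = 0.0401). *Syt13* ranged from 194 to 249 CPM in somatodendritic and from 22.4 to 113 CPM in axonal libraries, and its log2 fold change was -2.003 (SE 0.46, adjusted p = 0.00787).

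The calls differed in how far they depended on the settings and the number of libraries. *Syt1*, *Syt2*, *Syt6*, *Syt7*, *Syt9* and *Syt13* passed under all 18 alternatives, whereas *Syt3*, *Syt4* and *Syt11* lost their calls under 7, 8 and 9 of them. Leaving out any 1 of the 4 somatodendritic libraries left 6 members called, although the fold changes of *Syt3* stayed between -2.14 and -1.97 and those of *Syt4* between -2.19 and -1.999, and leaving out axonal replicates 2, 3 and 4 left 7, 8 and 6. Without both *Hnrnpr*-/- libraries numbered 3, 7 members were called, with *Syt2* at -3.57 (adjusted p = 0.0181), *Syt3* at -1.70 (adjusted p = 0.0785) and *Syt11* at -0.43 (adjusted p = 0.194).

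**Figure D3:**
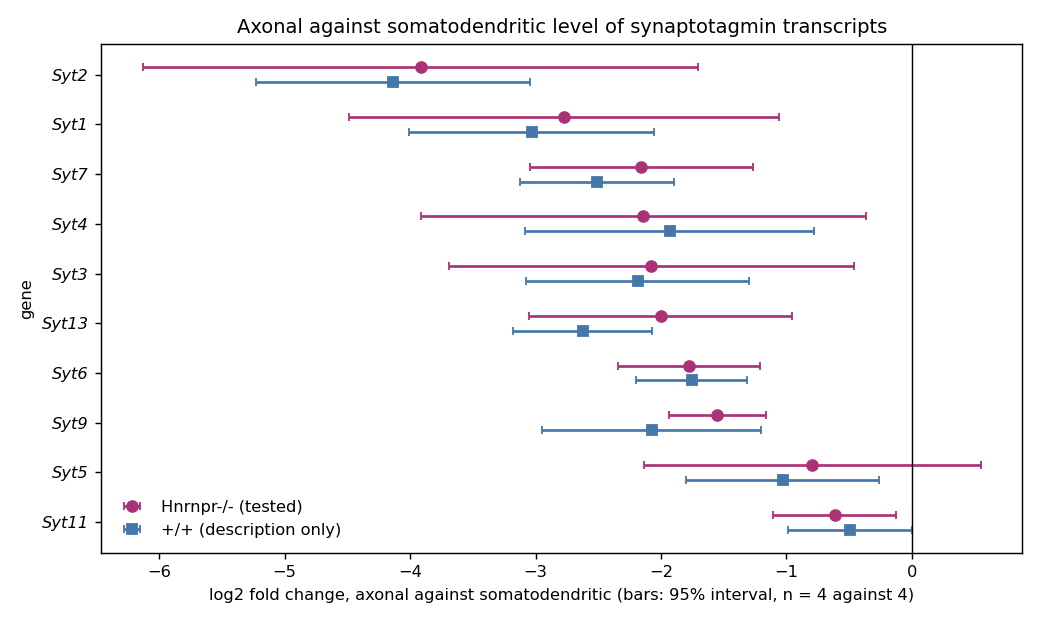
Log2 fold change of axonal against somatodendritic level for each member, with the 95% interval from 4 against 4 libraries, for Hnrnpr-/- (circles) and +/+ motoneurons (squares, shown as a description). Syt2 has the most negative value in both genotypes, at -3.92 and -4.13, and the Hnrnpr-/- interval of Syt5 spans 0.

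In +/+ motoneurons, the values that chose *Syt2* were 180.0, 171, 163 and 104 CPM in somatodendritic and 11.95, 11.95, 2.31 and 8.93 CPM in axonal ones, which gave a log2 fold change of -4.13. *Syt1* had -3.03, *Syt13* -2.62, *Syt7* -2.51, *Syt3* -2.19, *Syt9* -2.07, *Syt4* -1.93, *Syt6* -1.76, *Syt5* -1.03 and *Syt11* -0.49. The median was -2.13 over the members and 0.07 over all genes. The groups did not overlap for 9 members, here all but *Syt11*, while 27.6% of all genes were lower in axons without overlap, and nothing is read from this count because the contrast chose the family.

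Of the 6 motoneuron markers tested, 5 were called lower in *Hnrnpr*-/- axonal libraries, all but *Slc5a7* at -1.03, and no marker of another cell type was called lower. Fewer axons and less RNA per axon cannot be told apart in such bulk samples. The summed CPM of the 8 motoneuron markers was 1575 to 2752 in *Hnrnpr*-/- somatodendritic and 171 to 1039 in axonal libraries, and 2076 to 2602 and 190 to 1004 in +/+ libraries. Most of this sum came from the pan-neuronal *Tubb3* and *Map2*, with means of 1212 and 907 CPM in *Hnrnpr*-/- somatodendritic libraries and 315 and 199 CPM in axonal libraries. At the same time, the 8 astrocyte or radial glia markers summed to 1048 to 2275 CPM in *Hnrnpr*-/- somatodendritic and 2082 to 4162 in axonal libraries, and the 8 fibroblast or meningeal markers to 188 to 1402 and 575 to 2963 CPM. The highest axonal means of these lists were those of *Fabp7*, at 425 and 1522 CPM in the 2 compartments, and *Fn1*, at 111 and 744 CPM. *Gfap* and *Slc1a2*, named after their values were seen, had 342 and 309 CPM and 70.6 and 42.4 CPM. Of the 8 genes in each list, 1 astrocyte and 2 fibroblast genes were called higher in axonal libraries. For oligodendroglia or Schwann cells the sums were 287 to 1039 and 253 to 1789 CPM, and for microglia 7.58 to 91.3 and 19.7 to 213 CPM. All 8 genes of each of these non-neuronal lists were detected in both compartments. Of the non-neuronal markers, *Fabp7*, a lipid carrier of radial glia, rose by 1.84 in *Hnrnpr*-/- axonal libraries on the log2 scale, and *Olig1*, *Pdgfrb*, *Fn1* and *Tmem119* rose by 1.54, 3.02, 2.75 and 3.18. Their part in the synaptotagmin values was not tested.

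Ratios within a library do not depend on its scaling. A ratio of each member to *Tubb3*, the neuronal tubulin, was added after the data were seen. Relative to *Tubb3*, *Syt2* was lower in *Hnrnpr*-/- axons by a log2 difference of -2.62 and *Syt1* by -1.18, whereas *Syt5* was higher by 1.02 and *Syt11* by 1.64. For these 4 members, the axonal and somatodendritic libraries did not overlap, and an exact two-sided permutation test gave p = 0.0286, the smallest that 4 against 4 libraries allow. None passed an adjustment over the 10 ratios, with an adjusted p of 0.0715. With libraries paired by replicate number, an exact sign-flip test gave p = 0.125 for each of these 4 members. The other 6 members overlapped, with *Syt9* at 0.73, *Syt6* at 0.47, *Syt13* at 0.02, *Syt7* at -0.02, *Syt3* at -0.47 and *Syt4* at -0.66. With *Map2* in the place of *Tubb3*, *Syt2*, *Syt5* and *Syt11* had -2.45, 1.18 and 1.80, and *Syt1* had -1.02 with overlapping groups.

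*Syt2* was then set against *Syt1*, and *Syt4* against *Syt11*, as a ratio of counts within a library, uncorrected for gene length. The count of *Syt2* was 47.3%, 27.5%, 29.9% and 32.2% of that of *Syt1* in *Hnrnpr*-/- somatodendritic replicates 1 to 4, and 16.5%, 16.3%, 4.81% and 17.4% in axonal ones. All axonal values were below all somatodendritic ones, and 3 of them lay close together. The mean log2 ratio was -1.58 ± 0.35 (SD, n = 4) in somatodendritic and -3.02 ± 0.89 in axonal libraries, a difference of -1.44 by an exact two-sided permutation test with p = 0.0286, the smallest possible, and an adjusted p of 0.0286 over 2 ratios. Without axonal replicate 3 the difference was -0.99.

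The count of *Syt4* was 42.4%, 50.8%, 37.2% and 48.3% of that of *Syt11* in *Hnrnpr*-/- somatodendritic libraries and 31.8%, 13.1%, 1.89% and 8.35% in axonal ones. The groups were again apart, and the axonal values differed more among themselves. The mean log2 ratio went from -1.17 ± 0.20 to -3.47 ± 1.70, a difference of -2.30 with p = 0.0286 and an adjusted p of 0.0286 by the same exact test. It was -1.55 without axonal replicate 3. Paired by replicate number, both ratios were lower in axons in 4 of 4 pairs, and the exact sign-flip test gave p = 0.125, the smallest that 4 pairs allow. In +/+ libraries the differences were -1.10 for *Syt2* to *Syt1* and -1.74 for *Syt4* to *Syt11*, with no overlap in either.

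**Figure D4:**
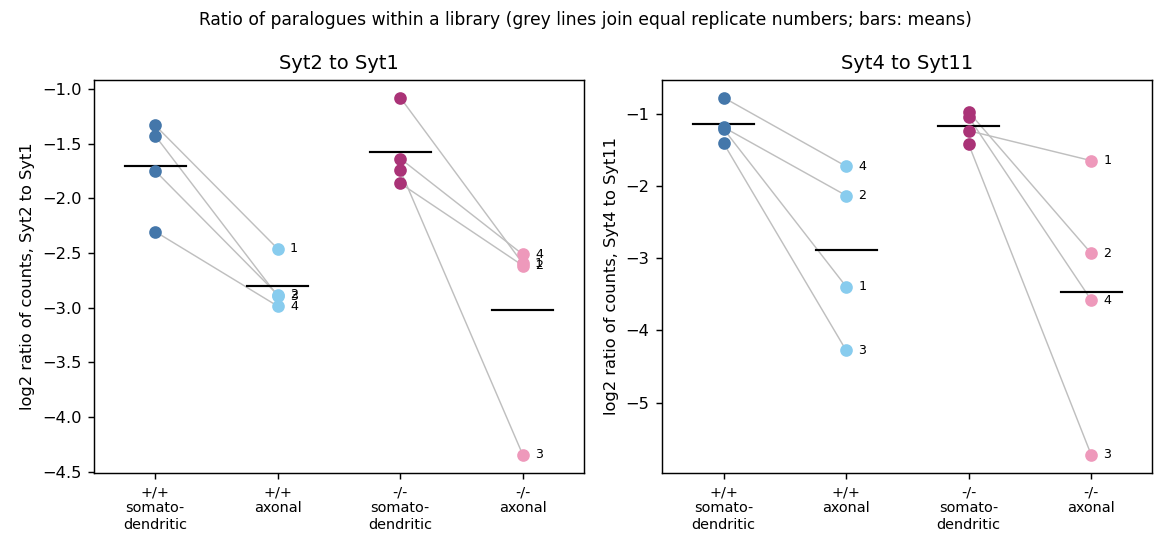
Log2 ratio of the counts of Syt2 to Syt1 and of Syt4 to Syt11 in each library, with bars for group means and grey lines joining libraries of the same replicate number. All axonal points lie below the somatodendritic points of their genotype, and Hnrnpr-/- axonal replicate 3 is the lowest in both panels.

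Between genotypes, no member was called. In axons, 0 of 10 passed an adjusted p under 0.05 in edgeR's test, where 1 of all genes or 0.00501% passed, and 0 of 10 passed an unadjusted p under 0.05, where 0.862% of all genes did. DESeq2 also called 0 members. The log2 fold changes of *Hnrnpr*-/- against +/+ axons ranged from -0.23 for *Syt4* to 0.66 for *Syt13*, with a median of 0.07, and were positive for 8 of 10. The intervals were wide: -1.95 to 2.36 for *Syt2* and -1.73 to 1.88 for *Syt1*, but -0.76 to 0.54 for *Syt11* and -0.62 to 0.73 for *Syt6*. The interval of *Syt2* thus spans changes of several fold in both directions. This contrast shares the +/+ axonal libraries by which *Syt2* was chosen.

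In the somatodendritic compartment the intervals were narrower. Here too, 0 of 10 members passed the adjusted threshold in edgeR, against 0.00501% of all genes, or the unadjusted one, against 2.75%, and DESeq2 called 0. The fold changes ranged from -0.28 for *Syt7*, with the smallest unadjusted p of 0.112 in edgeR, to 0.07 for *Syt6*. This contrast shares the +/+ somatodendritic libraries that entered the choice of *Syt2*. The interval of *Syt11* was -0.20 to 0.22 and that of *Syt2* -0.62 to 0.60. The difference of the genotype effect between compartments passed for 0 of the 9 members tested, with 0% of all genes past the adjusted threshold in edgeR and 1.33% past the unadjusted one, and the smallest unadjusted p was 0.244 for *Syt9*. For *Syt2* the difference was 0.22 (95% interval -2.003 to 2.44), given without a test.

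The other synaptotagmin genes were read in the same contrast. *Syt8* had at most 0.17 CPM in any library and was not tested. Of the 6 others, 5 were lower in *Hnrnpr*-/- axons, against 26.0% of all genes, with a median log2 fold change of -1.77. *Syt10* fell by 2.55, *Syt16* by 2.35 and *Syt14* by 2.18 on the log2 scale, with adjusted p-values of 0.00393, 0.0167 and 0.0054 from edgeR. *Syt12* and *Syt17* were named after their values were seen, and had -1.36 and -1.35 with adjusted p-values of 0.00542 and 0.0228. *Syt15* had 0.04 and did not pass. *Syt16* had 169.8 ± 9.93 CPM (SD, n = 4) in *Hnrnpr*-/- somatodendritic libraries and 33.3 ± 28.9 CPM in axonal libraries.

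Proteins that resemble synaptotagmins in having a pair of C2 domains or more did not share one direction. Of the 10 tested of 12 listed, 2 rose and 3 fell in *Hnrnpr*-/- axons, with a median of -0.51. These shares are near those of all genes, of which 52.8% passed in either direction and 26.0% as lower. *Esyt1*, an extended synaptotagmin at contacts of the endoplasmic reticulum with the plasma membrane, and *Sytl2*, a Rab27 effector, rose by 1.89 (SE 0.44) and 1.26 (SE 0.28). *Rph3a* and *Doc2a*, which act in neuronal exocytosis, had log2 fold changes of -2.47 and -1.08. *Doc2b* also passed as lower, but it was rare, with 2.21 ± 0.75 CPM (SD, n = 4) in *Hnrnpr*-/- somatodendritic libraries and no more than 3 counts in any *Hnrnpr*-/- axonal one, so its fitted fold change rests on the prior count and is not read as a size.

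The partners of synaptotagmins in membrane fusion showed lower axonal levels for most genes. Of the 10 SNARE genes, 6 fell and 2 rose in *Hnrnpr*-/- axons, with a median log2 fold change of -1.27, against 26.0% of all genes that passed as lower. *Vamp1* and *Vamp2*, which encode SNAREs of synaptic vesicle fusion, fell, with log2 fold changes of -2.24 and -1.6004. *Snap23* and *Vamp3*, which serve constitutive fusion in many cell types, rose by 1.66 and 1.603 (SE 0.24 and 0.29). *Snap25*, named after its value was seen, had -2.11 and did not pass (adjusted p = 0.0617 from edgeR), and *Vamp7* had -0.37 (adjusted p = 0.0749).

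Of 22 genes tested of 24 listed for the release machinery, 18 were lower in *Hnrnpr*-/- axons and none higher, with a median of -2.01, beside 26.0% of all genes lower. *Rims1*, an active zone scaffold, fell by 3.08 (SE 0.70), *Unc13a*, a priming factor, by 2.73 and *Rims3* by 2.68 on the log2 scale. The 4 that did not pass, named after their values were seen, were *Cplx1* at -1.37, *Ppfia3* at -0.96, *Ppfia1* at 0.15 and *Napa* at 0.29. Of 17 synaptic vesicle genes, 13 were lower, with a median of -2.10, again beside 26.0% of all genes. *Sv2b*, *Syn3* and *Sv2a*, which encode vesicle proteins, fell by 3.10, 2.75 and 2.54 on the log2 scale, while *Syp*, *Syngr3*, *Rab3a* and *Rab3b*, with values of -1.90, -1.55, -1.26 and -0.40, did not pass.

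Of 11 subunit genes of presynaptic calcium channels, which admit the calcium that synaptotagmins sense, 10 were lower, with a median of -2.01, where 26.0% of all genes were. *Cacna2d2* fell by 3.92, *Cacna1b*, the pore of N-type channels, by 3.04 and *Cacna1e* by 2.89 on the log2 scale, and *Cacna2d4* at -1.43 did not pass. The 6 motoneuron markers tested had 5 lower genes, against 26.0% of all genes, and a median of -2.02. *Map2* fell by 2.19 and *Slc18a3*, the vesicular acetylcholine transporter, by 2.10 on the log2 scale. *Chat* also passed as lower, but it was rare, with 1.07 ± 0.22 CPM (SD, n = 4) in *Hnrnpr*-/- somatodendritic libraries. It had 0.08 ± 0.12 CPM in *Hnrnpr*-/- axonal libraries, so its fitted fold change is not read as a size. The medians of the synaptotagmins, the release machinery, the vesicle genes, the calcium channels and the motoneuron markers thus lay between -2.10 and -2.01. None of these lists had a gene called between genotypes in either compartment.

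**Figure D5:**
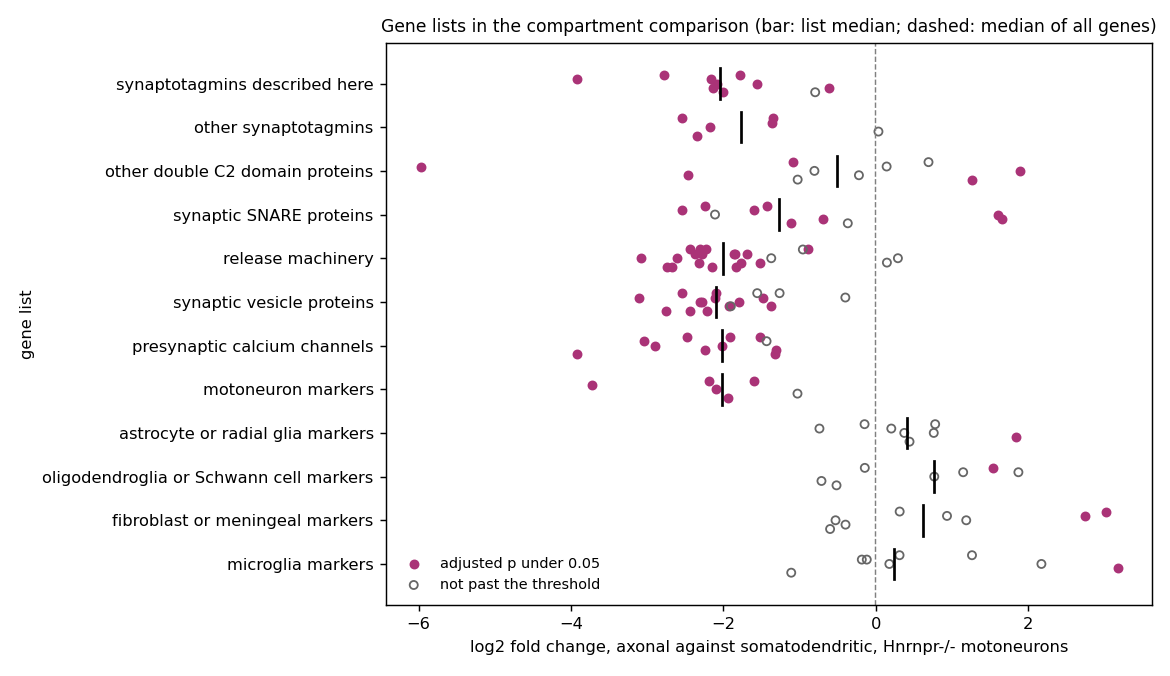
Log2 fold change of axonal against somatodendritic level in Hnrnpr-/- motoneurons for each gene of each list, filled where the adjusted p from edgeR was under 0.05, with bars at list medians and a dashed line at the median of all genes. The synaptotagmins and 4 other neuronal lists have medians between -2.10 and -2.01, whereas the glial, fibroblast and microglia lists have medians between 0.25 and 0.77.

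Finally, the genes most like *Syt2* were sought by the Pearson correlation of log2 CPM over the 16 libraries among 11226 genes with a mean of at least 10 CPM. The 5 highest were *Cntn5* at 0.995, *Tmem178b* and *Rims1* at 0.994, and *Nol4l* and *Nyap1* at 0.993. Such a correlation includes the distance between compartments, and how much of it this distance makes up was not tested. Among the members, *Syt1* came closest, at rank 120 with 0.986, followed by *Syt3* at rank 209 and *Syt7* at rank 634. *Syt4*, *Syt13*, *Syt11*, *Syt5*, *Syt9* and *Syt6* had ranks from 1305 to 3246.

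The transcripts of the members also differ in features that played no part in their choice. The 3′ untranslated region of the GENCODE transcript used has 5468 bases in *Syt2*, 4736 in *Syt7* and 6081 in *Syt13*, but 341 in *Syt5*, 370 in *Syt6* and 654 in *Syt3*. *Syt1*, *Syt11*, *Syt4* and *Syt9* lie between, at 2896, 2999, 2379 and 2128 bases. As given above, some of these transcripts differ in length from the exons of the count file. A link between these features and the axonal levels was not tested.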

How the data were processed

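RNA-seq libraries of 2 compartments and 2 genotypes were grouped by their titles. The labels give the molecule as poly(A) RNA. Per the methods of the study, cDNA was made and amplified with a SMART-Seq v4 kit, with more PCR cycles for axonal than for somatodendritic samples, tagmented and sequenced from 1 end. Reads were trimmed with Cutadapt, aligned to GRCm39 with STAR 2.7.2b and counted on exons with featureCounts 1.6.4 in the reverse-strand setting. The authors deposited expected counts, that is, fractional counts in which a read with several alignments or genes was divided, without normalization. Each table row also lists an exon length, deposited by the authors in bases and used for levels per kb. PCR copies carry no molecular identifiers, so a floor of 3 counts covers counting error only.

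Counts were rounded. In R 4.3.3 with edgeR 4.0.16, genes were filtered by expression per group and scaled by TMM factors over all 16 libraries, which left 19964 genes. Each contrast was fitted to its own 8 libraries by a quasi-likelihood model, and the interaction to all 16, with Benjamini-Hochberg adjustment over all genes. The standard error is the log2 fold change divided by the square root of F, and 95% intervals use the t distribution. Ratios of counts used a pseudocount of 0.5 and exact permutation tests. Tests were two-sided, and the model was tested on simulated data. Libraries of equal number were paired between compartments only in the replicate block and the exact sign-flip test, and the main tests were unpaired. The correlations of their deviations from group means were 0.105 to 0.508, and each was highest with its own number. Between genotypes, where they were -0.0458 to 0.677, libraries were not paired. Number 3 was there highest with its own number in both compartments, at 0.677 in axonal and 0.359 in somatodendritic libraries, as was axonal number 2, at 0.317. No 2 libraries were identical.

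The members, gene lists and tests were chosen with earlier results of these data known. Named genes are the 10 members, up to 3 genes called in each direction from every list, the 5 genes most like *Syt2* and *Hnrnpr*. Of the genes that this rule names, 1 is not reported here. Alternatives were RLE factors, library totals, no filter, a minimum of 10 counts in every library of a group, unrounded counts, DESeq2 1.42.0 with and without shrinkage, all 16 libraries in 1 fit, a replicate block, a pseudocount of 1 and each library left out. Ratios to *Tubb3* and the fit without both *Hnrnpr*-/- libraries numbered 3 were added after the data were seen. Sequences and transcript features were read from GENCODE M39 on GRCm39, and coding sequences were translated and compared with Biopython 1.88.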

Additional observations from a re-analysis of the deposited data

Results flagged for a closer look

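*Syt2* in *Hnrnpr*-/- somatodendritic replicate 1 was far from the other libraries of its group, at 260.3 CPM against 109.8 to 126 CPM. Its gap to the nearest library was 0.892 of the group's range, above Dixon's critical value for 4 samples. It was the only 1 of 40 combinations of member and group to pass, and chance passes about 1 in 20. Without this library, the paralogue ratio of *Syt2* to *Syt1* differed between the *Hnrnpr*-/- compartments by -1.27 on the log2 scale. In the same library *Syt1*, *Syt3*, *Syt7* and *Syt13* also had the highest level of their group.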

How the results depend on the processing

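In *Hnrnpr*-/- motoneurons, 6 to 10 members were lower in axons over 18 alternatives, and all 10 fold changes stayed negative. The lowest count came from leaving out 1 library. Library totals without scaling factors and the absence of a filter each called 7, without *Syt4* and *Syt11*. Under these 2 settings *Syt4* had log2 fold changes of -2.03 and -2.11, and *Syt11* -0.49 and -0.58. A replicate block changed no member's call. In the paired exact test of the ratios, the differences of -1.44 and -2.30 had p = 0.125. Leaving out 1 library at a time, the *Syt4* to *Syt11* difference ranged from -2.91 to -1.55, with an exact p of 0.0571 when any 1 somatodendritic library was left out. Over the whole table, the genotype called 2 genes in axons with all 16 libraries in 1 fit and 0 to 1 with 1 library left out, where 0 came without *Hnrnpr*-/- axonal replicate 2. The difference between compartments called 1 gene with DESeq2 default settings and 0 with edgeR. The cause of these changes was not tested. Of 580 member values for the genotype and its difference between compartments, 0 were called and 75 changed sign. The spread of the axonal libraries, with a common dispersion of 0.303 against 0.0535 in somatodendritic ones, limits what can be seen of the genotype in axons.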
